A study of Mus musculus with 6 samples.

Results

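The expression of 10 genes of the EGF receptor and HGF receptor systems was followed in WT and Vps15LKO mouse livers. They were the EGF receptor gene Egfr, its family members Erbb2 and Erbb3, the EGF family ligands Tgfa, Hbegf, Btc, Areg and Ereg, the HGF receptor gene Met and the gene of its ligand, Hgf. The genes were chosen by name, and all 10 were found among the 56305 genes of the table. RNA-Seq covered 3 WT and 3 Vps15LKO livers, 1 library each, from 5-week-old male mice fed ad libitum and collected at ZT6, that is 6 h after lights on. Vps15LKO mice (AlbCre+;Vps15 f/f) have Vps15, which encodes the class 3 PI3K regulatory subunit, deleted by Cre that is expressed from the albumin promoter. This promoter is active mainly in hepatocytes, and the deletion in each cell type of the liver was not measured in these data. The controls are labelled WT, and their Cre and floxed alleles are not given in the sources used here. The replicates are separate mice by the study's methods.

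Each EGF family ligand is made as a membrane-bound precursor and can be shed by metalloproteases. Egfr pairs with itself or with Erbb2, which has no known ligand of its own, or with Erbb3, whose kinase is largely inactive and which serves as a docking partner. HGF is secreted mainly by stellate and other mesenchymal cells of the liver as an inactive precursor, is cut by serine proteases, and acts on MET of hepatocytes. Both systems signal through the RAS-ERK cascade, are known for their part in liver growth and regeneration, and are switched off in part by endocytosis, in which class 3 PI3K acts on endosomes.

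The libraries held between 16137093 and 18110223 reads on genes, and the deposited values are reads divided by 1 size factor per library, called normalized counts here. The size factors were 0.742 to 0.801 in WT and 1.23 to 1.41 in Vps15LKO, so that 1 read was worth more in WT. Pik3r4, which encodes Vps15, stood at 508, 573 and 460 normalized counts in WT and at 341, 362 and 355 in Vps15LKO, without overlap. It was lower in Vps15LKO by limma (log2 fold change -0.54, SE 0.11, adjusted p = 0.0021), but when each library was instead scaled to an equal number of reads (total-read scaling) its log2 fold change was 0.19 and was not called. That scaling moved the median of all genes by 0.72 on the log2 scale, and its values are given beside the main results where they change a call. The summed hepatocyte markers fell from between 3166543 and 3517820 normalized counts to between 1008932 and 1496583, and markers of other cell types are given beside the genes they move with. In whole liver, fewer cells of a type and less RNA per cell cannot be told apart.

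Among the 10 genes, the receptors Egfr, Erbb3 and Met were lower in Vps15LKO livers, and Erbb2 and the ligands Tgfa, Hbegf, Btc and Hgf were higher. Calls required a limma p below 0.05 after Benjamini-Hochberg adjustment over all genes tested, and a fold of 1.2 or more, on log2(normalized count + 1), which understates the change of low genes. The 8 genes above passed the filter (a value of 20 or more in 3 or more livers), each with values over it in livers of both genotypes, and Areg and Ereg did not. Of the 8, 5 were called higher and 3 lower, against 33.5% of the 15430 genes tested called higher and 33.0% called lower. The 3 values of each genotype did not overlap for any of the 10 genes, which held for 73.2% of all genes tested. Under total-read scaling, 5 were higher and 1, Egfr, was lower, where 66.7% of all genes tested were called higher and 11.1% lower, so the share of higher genes was then near that of all genes. With the median over all genes subtracted, Erbb3 and Met were lower with each of the 3 scalings drawn in the plot of fold changes.

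**Figure D1:**
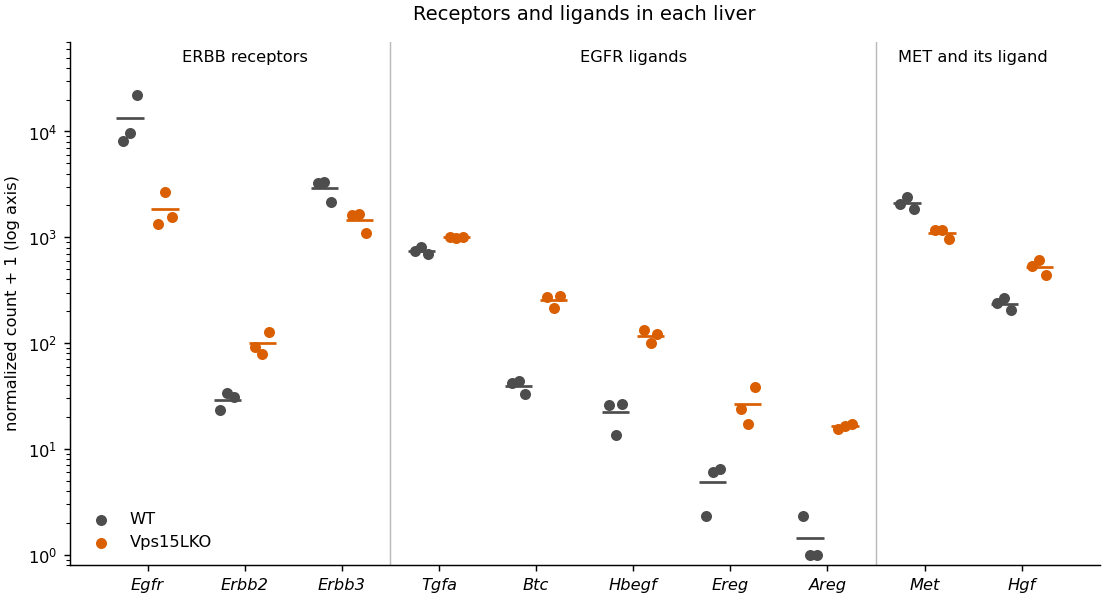
Normalized counts plus 1 (log axis) of the 10 genes in each of the 6 livers, with WT and Vps15LKO points side by side and a bar at the mean of each genotype. Egfr is highest in WT replicate 3 at 22051, and the points of the genotypes are apart for each of the 10 genes.

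Egfr (chromosome 11, 16752203 to 16918158, plus strand, GRCm38) was the most abundant of the 10 genes per length of exon in WT. It was measured at 8046, 9758 and 22051 normalized counts in WT and at 1335, 2675 and 1567 in Vps15LKO. WT replicate 3 stood well above the other WT livers, and even the lowest WT liver was above every Vps15LKO liver. The mean fell from 13285 ± 7640 (SD, n = 3) to 1859 ± 716 (SD, n = 3), a fold of 7.15. The log2 fold change was -2.76 (SE 0.38, adjusted p = 0.00027 by limma). It was -2.32 without WT replicate 3 and -2.03 under total-read scaling, and it was called lower in both. The genes whose log2 values ran most alike with Egfr over the 6 livers included Kcnk5 (Pearson r 0.998) and Kpna6 (0.998). As many as 767 genes had an r over 0.95, and all points share the difference between the genotypes.

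Erbb3 (chromosome 10, 128567523 to 128589652, minus strand), the docking partner with little kinase activity of its own, was at 3267, 3333 and 2159.5 normalized counts in WT and at 1608, 1655 and 1093 in Vps15LKO. The lowest WT liver lay above the highest Vps15LKO liver, and the third replicate was the lowest of each genotype. The log2 fold change was -1.0 (SE 0.21, adjusted p = 0.0026), but -0.28 and not called (adjusted p = 0.158) under total-read scaling. Erbb2 (chromosome 11, 98412470 to 98437716, plus strand), the partner without a ligand, went the other way. Its normalized counts were 22.5, 32.5 and 29.7 in WT and 91.6, 78.6 and 127 in Vps15LKO. All 3 Vps15LKO livers were above all WT livers, with the highest value in Vps15LKO replicate 3. The mean rose 3.51-fold, from 28.2 ± 5.12 to 98.9 ± 24.8 (SD, n = 3 each), with a log2 fold change of 1.76 (SE 0.24, adjusted p = 0.00022). The fourth receptor gene of the family, Erbb4, averaged 63.7 ± 15.0 in WT and 26.9 ± 6.30 in Vps15LKO (normalized counts, SD, n = 3 each). It was called lower (log2 fold change -1.21, adjusted p = 0.0029), but not under total-read scaling, where its log2 fold change was -0.50.

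The makeup of the ERBB receptor transcripts therefore differed between genotypes. Per kilobase of exon, Egfr made up 56.3%, 60.3% and 84.0% of the 4 receptor transcripts in WT, but 29.1%, 44.7% and 39.9% in Vps15LKO. Egfr was the larger part in every WT liver, and Erbb3 was the larger part in every Vps15LKO liver. Erbb3 averaged 32.4% ± 14.8 in WT and 56.8% ± 7.88 in Vps15LKO (SD, n = 3 each). The share of Erbb2 went from 0.342% ± 0.095 to 4.74% ± 2.11. The summed level of the 4 receptors was 1669 ± 567 normalized counts per kilobase in WT and 427 ± 92.6 in Vps15LKO. A ratio within a library does not depend on its scaling. In normalized counts, not corrected for length, the log2 ratio of Erbb2 to Egfr was -8.70 ± 0.70 in WT and -4.18 ± 0.78 in Vps15LKO. The genotypes did not overlap in this ratio, and the exact two-sided permutation test gave p = 0.1, the smallest that 3 against 3 livers allow. The log2 ratio of Egfr to Met went from 2.52 ± 0.93 to 0.70 ± 0.50, also without overlap (exact permutation p = 0.1).

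Markers of hepatocytes, the main cells in which the albumin promoter is active, fell as well, with 8 of 10 called lower and a median log2 fold change of -1.48 (-0.76 with 8 lower under total-read scaling, -0.46 with 6 lower after quantile normalization). Set against the mean log2 value of these markers in the same library, Egfr had log2 ratios of -3.74, -3.38 and -2.17 in WT and -4.43, -3.69 and -3.94 in Vps15LKO. The genotypes overlapped in this ratio (exact permutation p = 0.2), and the difference was -0.92, or -0.46 without WT replicate 3. Erbb3 and Met went the opposite way on this measure. Erbb3 was 0.83 higher and Met 0.89 higher relative to hepatocyte markers in Vps15LKO on the log2 scale, without overlap and each with an exact permutation p of 0.1. The markers fell unequally, from -3.83 for Serpina1c and -3.03 for Pck1 to -0.65 for Tf, so these differences depend on the markers taken. After quantile normalization, Erbb3 was at -0.59 and Met at -0.61. Alb, Apoa1, Apob, Tf, Hnf4a and Cps1 then lay above both, and Ttr, Asgr1, Pck1 and Serpina1c below both. The part of the hepatocyte content in these values was not tested.

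**Figure D2:**
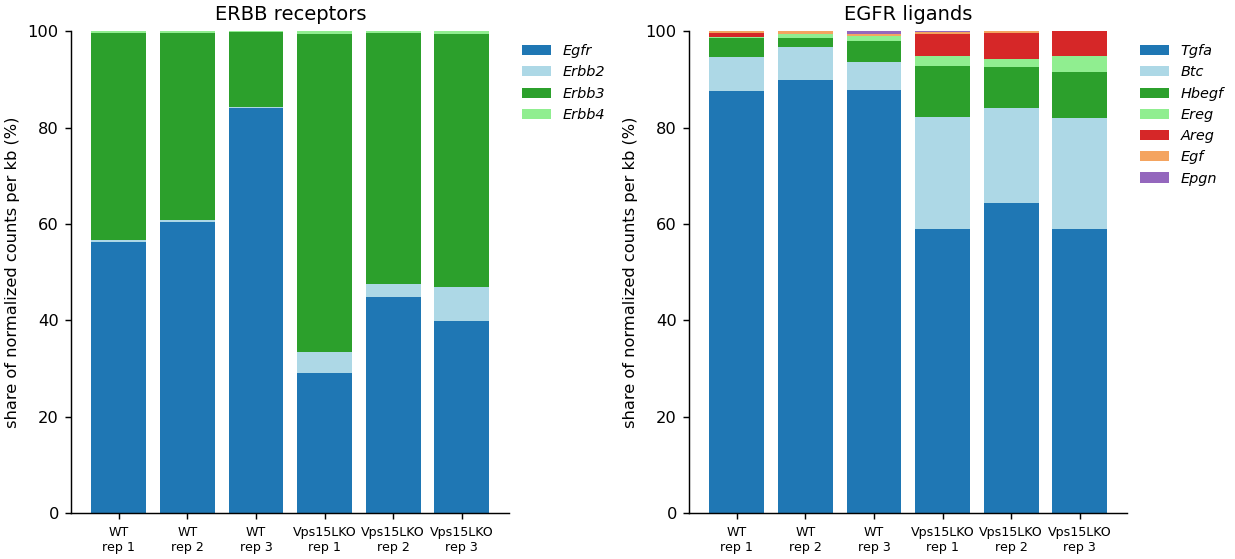
Percent of the summed normalized counts per kilobase of exon taken by each ERBB receptor and by each EGF receptor ligand, as stacked bars for each of the 6 livers. Egfr holds 56.3% to 84.0% of the receptor sum in WT and 29.1% to 44.7% in Vps15LKO, and Tgfa is the main ligand transcript in every liver.

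Met, the receptor of HGF, and Hgf moved in opposite directions. Met (chromosome 6, 17463800 to 17573980, plus strand) was at 2080.4, 2419 and 1833 normalized counts in WT and at 1165, 1166 and 956 in Vps15LKO. Every WT liver was above every Vps15LKO liver. The mean fell from 2111 ± 294 to 1096 ± 121 (SD, n = 3 each), with a log2 fold change of -0.94 (SE 0.13, adjusted p = 0.00025). Under total-read scaling it was -0.22 and was not called (adjusted p = 0.106). The genes most alike with Met over the 6 livers were Pus10, ENSMUSG00000118491 and Nat8f6, each with a Pearson r of 0.999, and 2151 genes had an r over 0.95.

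Hgf (chromosome 5, 16553495 to 16620152, plus strand) was at 237, 264 and 205 normalized counts in WT and at 535, 613 and 437 in Vps15LKO. The lowest Vps15LKO liver was above the highest WT liver. The mean rose 2.25-fold, from 235 ± 29.4 to 528 ± 88.3 (SD, n = 3 each), with a log2 fold change of 1.16 (SE 0.15, adjusted p = 0.00018). The annotation places 484 exonic bases of Hgf under another gene of the same strand, Gm43489, so reads there cannot be assigned to Hgf alone. On the opposite strand, Ereg shares 141 exonic bases with Gm19610, Tgfa 118 with Gm43917 and Erbb2 9 with Mien1. Whether reads were counted by strand is not given in the sources used here, so those in these stretches are uncertain too, above all for Ereg with its few reads. The log2 ratio of the normalized counts of Hgf to those of Met was tight within each genotype, at -3.13, -3.19 and -3.16 in WT and at -1.12, -0.93 and -1.13 in Vps15LKO. The ligand transcript thus stood 4.29-fold higher relative to its receptor transcript in Vps15LKO (exact permutation p = 0.1, without overlap). Markers of stellate cells and fibroblasts, which are known sources of HGF, were all called higher, 12 of 12 with a median log2 fold change of 2.09, though 1 of them passed the filter only through Vps15LKO. Their summed level was between 4211 and 5299 in WT, against 26463 to 32036 in Vps15LKO. Relative to the mean log2 value of the 12 markers, Hgf was 1.11 lower in Vps15LKO (exact permutation p = 0.1, without overlap). The markers rose unequally. The collagen genes Col1a1 (4.39), Col3a1 (3.58) and Col1a2 (3.29) had larger log2 fold changes than Hgf, whereas Lrat (0.56), which encodes the retinol esterase of stellate cells, Hand2 (0.85) and Reln (0.97) had smaller ones and Ngfr (1.15) about the same. After quantile normalization Reln (1.36) was above Hgf (1.11). The part of these cells in the rise of Hgf was not tested.

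**Figure D3:**
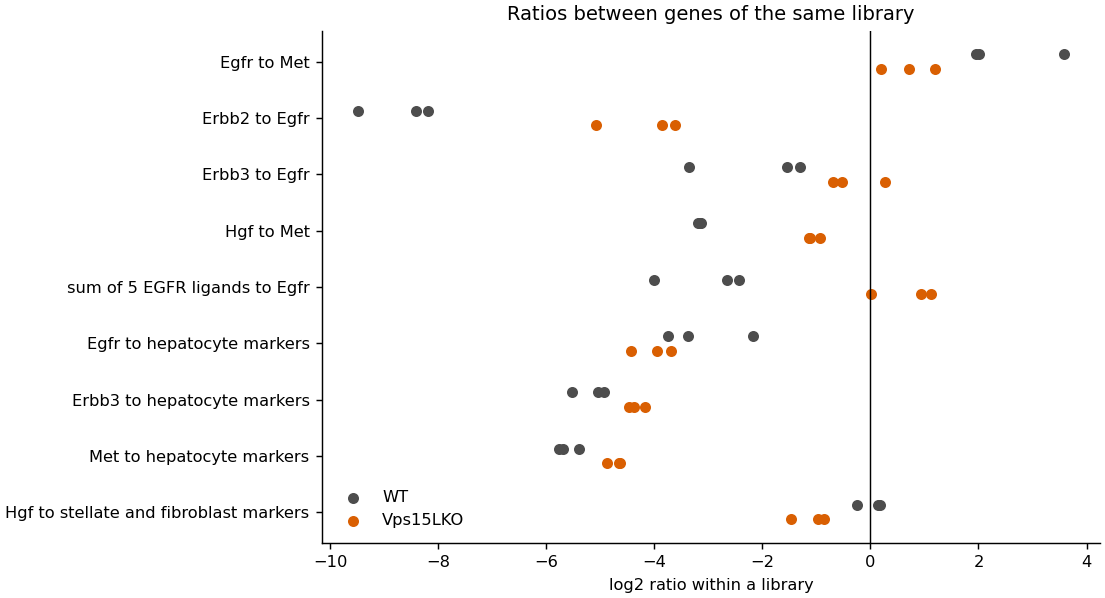
Log2 ratios between transcripts within each library (per kilobase for the 5 ligands to Egfr, to the mean log2 value for markers, otherwise of normalized counts), 1 point per liver and a row per ratio, with WT and Vps15LKO in separate colours. The Hgf to Met points lie at -3.19 to -3.13 in WT and at -1.13 to -0.93 in Vps15LKO, and the genotypes overlap in the ratio of Egfr to hepatocyte markers.

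Of the 5 chosen ligands of the EGF receptor, Tgfa was the most abundant in both genotypes and had the lowest fold. Tgfa (chromosome 6, 86195223 to 86275719, plus strand), which encodes TGF alpha, was at 745, 801 and 694 normalized counts in WT and at 995, 991 and 1013 in Vps15LKO. The Vps15LKO livers lay close together and above every WT liver. Its log2 fold change was 0.42 (SE 0.088, adjusted p = 0.0026), short of a fold of 1.5. Btc (chromosome 5, 91357261 to 91402994, minus strand) encodes betacellulin, which binds Egfr and Erbb4. It was measured at 41.1, 42.5 and 32.4 normalized counts in WT and at 274, 212 and 275 in Vps15LKO. The groups were far apart, and the mean rose 6.57-fold, from 38.6 ± 5.49 to 254 ± 36.0 (SD, n = 3 each). The log2 fold change was 2.68 (SE 0.17, adjusted p = 5.1e-06).

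Hbegf (chromosome 18, 36504927 to 36515805, minus strand) encodes heparin-binding EGF-like growth factor, which also binds Egfr and Erbb4. It was at 25.2, 12.5 and 25.6 normalized counts in WT and at 131, 98.9 and 121 in Vps15LKO. All WT livers were low, and WT replicate 2 was the lowest. The mean rose 5.54-fold, from 21.1 ± 7.46 to 117 ± 16.3 (SD, n = 3 each), with a log2 fold change of 2.47 (SE 0.29, adjusted p = 0.00010).

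Areg and Ereg, which encode amphiregulin and epiregulin, lie near Btc on chromosome 5 and were near the limit of detection in WT. Areg (91139599 to 91148432, plus strand) had 1, 0 and 0 reads in WT and 19, 19 and 23 reads in Vps15LKO. In normalized counts these were 1.33, 0 and 0 in WT and 14.5, 15.4 and 16.3 in Vps15LKO. With WT at or under 3 reads in each library, Areg was at least 3.92-fold higher in Vps15LKO. Ereg (91074622 to 91093646, plus strand) had 1, 4 and 4 reads in WT and 30, 20 and 53 in Vps15LKO. That was 1.33, 5.0 and 5.39 normalized counts against 22.9, 16.2 and 37.5, a 6.54-fold higher mean in Vps15LKO. Both genes were kept apart from the count above, because they did not pass the filter. In the same limma fit without the filter, which called 23.4% of 29328 genes higher, Areg was higher (adjusted p = 0.00019), and so was Ereg (log2 fold change 2.49, SE 0.51, adjusted p = 0.0029).

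As shares of the summed transcripts per kilobase of 7 ligands, the 5 with Egf and Epgn, Tgfa went from 88.4% ± 1.24 in WT to 60.8% ± 3.06 in Vps15LKO (SD, n = 3 each). Btc went from 6.55% ± 0.592 to 22.04% ± 1.97 and was second to Tgfa in every liver. Hbegf went from 3.40% ± 1.33 to 9.49% ± 0.890, and Areg from 0.278% ± 0.481 to 4.997% ± 0.375. The sum of the 7 ligands was 130.1 ± 7.73 normalized counts per kilobase in WT and 254 ± 14.4 in Vps15LKO. Set against Egfr in the same library, the log2 ratio of the summed 5 ligands, per kilobase, was -2.44, -2.65 and -4.00 in WT and 1.13, 0.00 and 0.93 in Vps15LKO. The genotypes did not overlap, and the ratio was 13.1-fold higher in Vps15LKO (exact permutation p = 0.1). Markers of cholangiocytes, of which 10 of 10 were called higher, summed to between 1401 and 1562 in WT, against 13320 to 24995 in Vps15LKO, and Cldn4 was at the floor in WT. Of these 10 markers, 3 passed the filter only through the Vps15LKO livers, so that their calls were favoured by the filter. Macrophage markers, 8 of 10 called higher (9 under total-read scaling, and 9 higher and 1, Timd4, lower after quantile normalization), summed to 7717 to 9193 and 25089 to 29112. The part of these cells in the ligand values was not tested.

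Ordered by normalized counts per kilobase, the WT livers ran from Egfr (1173 ± 675) through Erbb3 (485 ± 110), Met (275 ± 38.3), Tgfa (115 ± 8.20), Hgf (32.7 ± 4.09), Btc (8.55 ± 1.21), Erbb2 (5.42 ± 0.983), Hbegf (4.36 ± 1.54) and Ereg (0.946 ± 0.543) to Areg (0.364 ± 0.630; SD, n = 3 each). In this order only Erbb2 and Hbegf, and Ereg and Areg, overlapped with their neighbour. In Vps15LKO the order began with Erbb3 (241 ± 51.8), Egfr (164 ± 63.2), Tgfa (154 ± 1.79) and Met (143 ± 15.7). Here Egfr overlapped with both Erbb3 and Tgfa, whereas Erbb3 and Tgfa did not overlap with each other. Hgf (73.5 ± 12.3) and Btc (56.2 ± 7.96) followed and overlapped, as did Hbegf (24.2 ± 3.36) and Erbb2 (19.0 ± 4.76), with Areg (12.7 ± 0.723) and Ereg (6.19 ± 2.64) last.

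**Figure D4:**
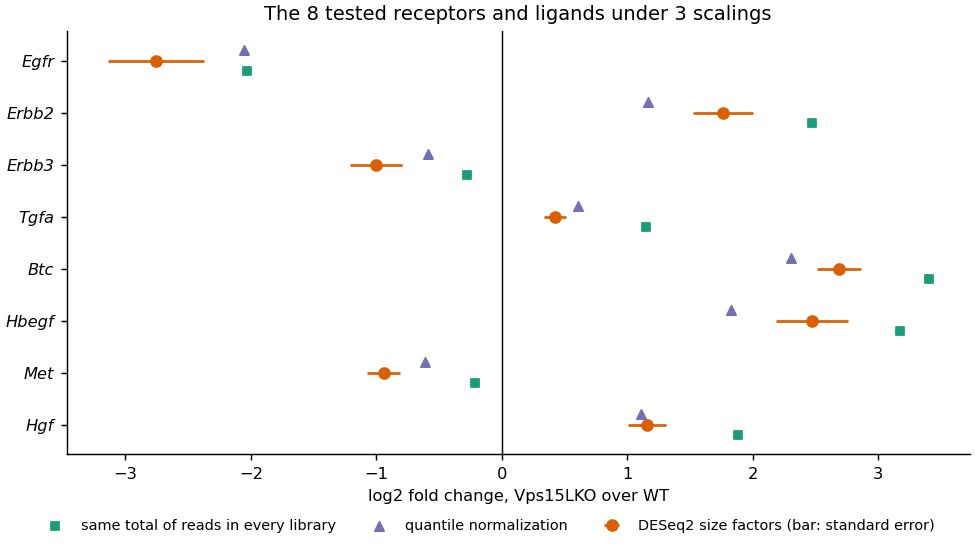
Log2 fold change of the 8 tested genes, Vps15LKO over WT, with the deposited size factors (circles, bar: standard error), with total-read scaling (squares) and after quantile normalization (triangles). Egfr stays below -2 and Btc above 2 with each scaling, whereas Erbb3 and Met move to -0.28 and -0.22 under total-read scaling.

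The 250 bases before the RefSeq start of 7 of the 10 genes were read from the promoter table of the GRCm38.p6 assembly, and are shown for Areg, the ligand at the floor in WT, and Egfr, the receptor with the lowest fold change. They were searched on both strands for the E-box CACGTG, which Bmal1–Clock binds, the cAMP response element TGACGTCA, the AP-1 site TGAGTCA and the TATA box TATAAA. Capitals mark the matches. The window of Met overlaps annotated exons, so only 30 bases around each of its matches are given.
Areg, chr5:91139349-91139598, plus strand: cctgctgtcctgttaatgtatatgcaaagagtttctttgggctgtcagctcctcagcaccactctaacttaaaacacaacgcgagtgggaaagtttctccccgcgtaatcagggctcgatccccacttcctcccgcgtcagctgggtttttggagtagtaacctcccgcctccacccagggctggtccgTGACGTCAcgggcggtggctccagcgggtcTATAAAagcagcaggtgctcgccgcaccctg
Egfr, chr11:16751953-16752202, plus strand: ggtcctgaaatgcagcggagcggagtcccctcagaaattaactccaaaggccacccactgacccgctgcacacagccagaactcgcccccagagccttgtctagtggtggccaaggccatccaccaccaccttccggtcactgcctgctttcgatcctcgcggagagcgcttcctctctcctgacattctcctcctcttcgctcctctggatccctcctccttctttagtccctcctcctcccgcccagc
Met E-box, chr6:17463819-17463848, plus strand: gggacgaacagaCACGTGctggggcgggta
Met AP-1 site, chr6:17463892-17463921, plus strand: tgttgcccggcTGAGTCAcgggccgggcag

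Areg held the letters of a cAMP response element from base -61 to -54 and a TATA box from -31 to -26, counted from the RefSeq start, and neither overlapped the other. Met held those of an E-box from -126 to -121 and an AP-1 site from -54 to -48. Both lie before the RefSeq start but within the Met gene as annotated by GENCODE, which starts at 17463800. The other windows, those of Egfr, Erbb2, Tgfa, Btc and Hgf, had none of these letters. Among 32851 RefSeq promoters, 6.02% held the E-box, 1.55% the cAMP response element, 4.46% the AP-1 site and 12.4% the TATA box. The GC content of the window was 57.2% for Areg, 60.8% for Egfr and 74.0% for Met.

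The other genes of the ERBB family covered 7 genes, of which 3 passed the filter. Nrg1, a neuregulin that binds Erbb3 and Erbb4, was at 7.96, 15.0 and 9.44 normalized counts in WT and at 248, 303 and 226 in Vps15LKO. It passed the filter only through the Vps15LKO livers, which favoured a call, and its log2 fold change was 4.50 (adjusted p = 8.4e-07 by limma in the fit without the filter). Nrg4, a ligand of Erbb4, averaged 453 and 439 normalized counts and was not called (log2 fold change -0.06, adjusted p = 0.73), but was called higher (0.66) under total-read scaling, and Erbb4 is given above. Egf, the namesake ligand, was at 5.30, 8.74 and 5.39 in WT and at 12.2, 8.91 and 0.707 in Vps15LKO and was not tested. Nrg2 and Epgn were at or under 3 reads in every WT library, and Nrg3 was at 0 in all 6 livers. Epgn was at or under 3 reads in every Vps15LKO library too, whereas Nrg2 was not. Of the proteases that shed the ligands and their partners, 10 genes, 9 were called higher and 1 lower. The partners Rhbdf1 (log2 fold change 1.83), Rhbdf2 (1.72), Frmd8 (0.70) and Timp3 (1.87) are not proteases. They were among the 9 higher genes and are named after their values were seen. The largest rises were Adam8 (log2 fold change 3.83) and Adam12 (2.47), both of which passed the filter only through Vps15LKO. Adam17 and Adam10, the main sheddases of these ligands, which the rule for named genes did not select and which were chosen after their values were seen, had log2 fold changes of 0.43 (adjusted p = 0.0088) and 1.05 (adjusted p = 2.6e-05). Adam9 was the lower gene (log2 fold change -0.32), but it was at 0.41 under total-read scaling, where all 10 were called higher, and at -0.07 and not called after quantile normalization.

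The genes that activate HGF, with MSP (Mst1) and its receptor RON (Mst1r), split into groups that moved in opposite directions, 7 of 12 higher and 5 lower. Beside them, the median log2 fold change was -1.48 for hepatocyte markers and 3.28 for cholangiocyte markers. It was 2.09 for stellate cell and fibroblast markers and 1.42 for macrophage markers. The part of these cells in the 12 genes was not tested. Hgfac, the HGF activator, a serine protease secreted by hepatocytes, fell from 4999 ± 356 to 1979 ± 361 normalized counts (SD, n = 3 each). Its log2 fold change was -1.35 (adjusted p = 5.5e-05), and Hpn, the hepatocyte serine protease hepsin, was at -1.09. Klkb1, the precursor of plasma kallikrein, was at -2.60, F12, coagulation factor XII, at -1.0 and Mst1 at -1.05. These 5 genes were also called lower under total-read scaling, though F12 (-0.07) was not after quantile normalization. The higher genes were Plat and Plau, the plasminogen activators, with log2 fold changes of 5.92 and 2.84, and Plaur, the urokinase receptor, at 5.05. St14, the membrane protease matriptase, was at 4.66, with the HGF activator inhibitors Spint1 at 3.08 and Spint2 at 0.47, and Mst1r at 1.70, which was not called after quantile normalization (0.50). Of these, 4 passed the filter only through the Vps15LKO livers, and where 20 normalized counts were required in every liver, 1 gene of the list was called higher and 5 lower. St14, for example, had 11.9, 12.5 and 12.1 normalized counts in WT, against 301, 289 and 418 in Vps15LKO.

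Among 18 inhibitors of ERBB and MET signalling, 12 were called higher and 3 lower, with 14 and 1 under total-read scaling and 11 and 5 after quantile normalization. Errfi1, a feedback inhibitor that binds the Egfr kinase, was the largest fall, from 22964, 14273 and 19543 normalized counts in WT to 4611, 3186 and 2429 in Vps15LKO. Its log2 fold change was -2.50 (adjusted p = 4.8e-05) and -1.77 under total-read scaling. Lrig3, of a family of membrane proteins that act on ERBB receptors, was at -0.91 (-0.19 and not called under total-read scaling), and the largest rises were Spred3 (2.46, which passed the filter only through Vps15LKO) and Spry2 (1.74), from families that restrain RAS-ERK signalling. Of 18 adaptors and members of the RAS-ERK cascade, 4 were called higher and 8 lower, with a median of -0.12, but 15 higher and 1 lower under total-read scaling and 6 and 4 after quantile normalization. The adaptor Gab2 (2.03) and the kinase gene Mapk3 (1.62), which encodes ERK1, were the largest rises. Sos1, an exchange factor of RAS, was at -1.09, and Map2k2, an ERK kinase, was at -0.53, but at 0.19 and not called under total-read scaling. Of 10 output genes of ERK, 9 were tested, and 7 were called higher and 0 lower, with 7 and 1 after quantile normalization. The counts were also 7 and 1 by edgeR and by DESeq2 on the recovered reads and with a replicate block. Etv4, an ETS factor, was at or under 3 reads in each WT library and at least 17.7-fold higher in Vps15LKO, through which alone it passed the filter, and Dusp4, an ERK phosphatase, had a log2 fold change of 3.76. Phlda1, 1 of the 2 tested output genes that were not called and named after its values were seen, was at 3555, 2037 and 694 in WT and at 1061, 718 and 540 in Vps15LKO, with an overlap between the genotypes. WT replicate 3 was the lowest WT liver for it, and without that liver 2 output genes, Phlda1 and Spry4, were called lower.

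Of 14 genes for the endosomal sorting of receptors, 2 were called higher, 5 lower and 7 were not called, with a median of -0.17. Stam2, an ESCRT-0 subunit (0.49), and Eps15, an endocytic adaptor (0.29, adjusted p = 0.048), were higher, but Eps15 lost its call when any liver but WT replicate 3 was left out and with a replicate block. By contrast Rab5a, the early endosome GTPase (-0.48), and Epn1, another endocytic adaptor (-0.47), were lower. Under total-read scaling the last 2 stood at 0.25 and 0.26 and were not called, and 12 of the 14 genes were higher and 0 lower. After quantile normalization 5 were higher and 1 lower, and Epn1 was at 0.20. Over the 7 lists together, 41 of 82 tested genes were higher and 23 lower, with 66 and 7 under total-read scaling, but 9 passed the filter only through Vps15LKO, and 28 were higher where every liver had to reach 20 normalized counts. Over the 82 genes the median was 0.22, beside -0.02 for all tested genes.

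**Figure D5:**
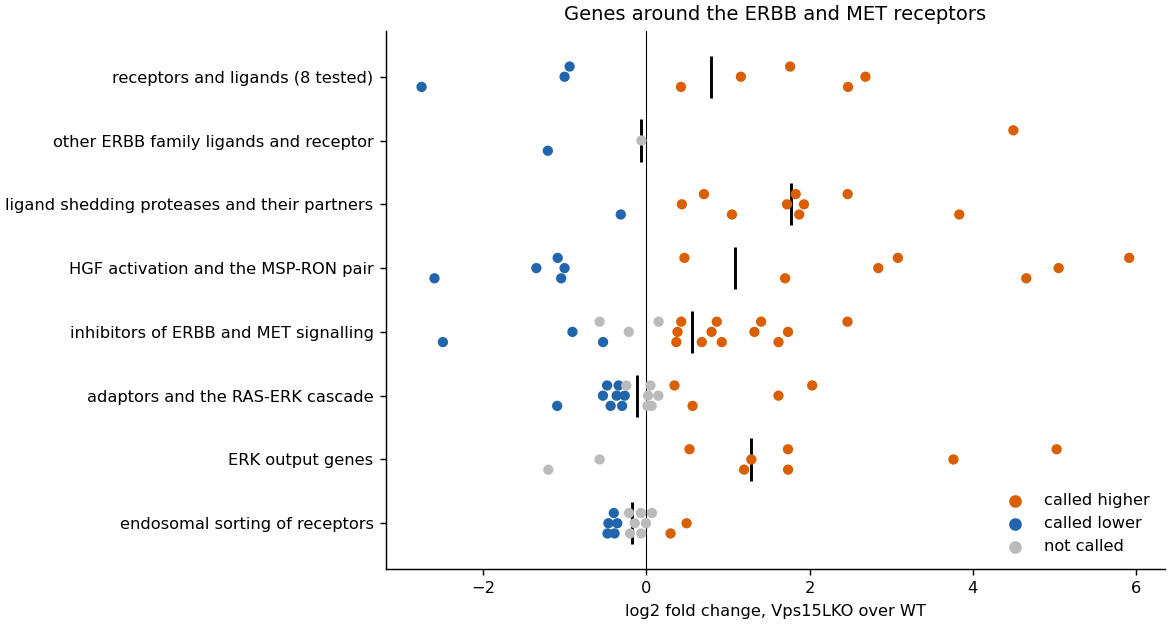
Log2 fold change, Vps15LKO over WT, of each tested gene in the 7 lists around the ERBB and MET receptors and of the 8 tested receptors and ligands, 1 point per gene, coloured by its call, with a line at the median of each list. The shedding proteases together with their partners have a median of 1.78 and the HGF activation genes fall into higher and lower groups.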

How the data were processed

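RNA-Seq of 3 WT and 3 Vps15LKO livers was used (poly(A) RNA, a kit that marks strand). The authors filtered reads with SOAPnuke, mapped them with HISAT2 to GRCm38, counted genes with featureCounts and scaled the counts with DESeq2 size factors. Versions and the strand setting are not given in the sources used here. The deposited values are a signal, these normalized counts. All values were whole multiples of 1 read (100%, tolerance 0.01), so reads were recovered, and DESeq2 gave the same size factors from them.

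Genes that reached 20 normalized counts in 3 or more of 6 livers (15430) were compared on log2(normalized count + 1) by limma 3.58.1 (lmFit, eBayes with a trend, Benjamini-Hochberg) in R 4.3.3, with calls below an adjusted p of 0.05 and from a fold of 1.2. Ratios within a library were compared by an exact two-sided permutation test. A group with at most 3 reads in every library was taken to be at the floor. Coordinates, exons and symbols are from GENCODE M21 and promoters from RefSeq. Groups came from the labels. Same-numbered livers did not deviate together (correlations -0.01, -0.01 and 0.05), so numbers were not used as pairs. No library was a copy of another (chi-square per gene 15.4 to 41.0 between replicates). The fit was also run on simulated counts, with 200 changed genes among 15406. It called 81.8% of the changes of size 1 and 100% of those of size 2 on the log2 scale, with 12 false calls. Far fewer genes changed there than were called in these data, so it does not test the choice of scaling.

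The 10 genes and all lists were chosen with earlier results of these data known. Named were the 10 genes, Pik3r4, every gene of the lists of other ERBB genes and of HGF activation, up to 2 largest rises and 2 largest falls among the called genes of each other list, markers at the floor, and the 3 genes most alike with Egfr and with Met, of which 1 is not reported here. Alternatives were other pseudocounts, filters, scalings and thresholds, limma with no trend, count tests on the recovered reads (DESeq2 1.42.0, edgeR 4.0.16, voom), each liver left out in turn, and a replicate block. Python 3.11.15, scipy 1.17.1 and matplotlib 3.10.9 were used.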

Additional observations from a re-analysis of the deposited data

How the results depend on the processing

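Across the 21 alternatives, 4 to 7 of the 10 genes were called higher and 1 to 3 lower, and none of the 8 tested genes changed direction where it had a value. Areg and Ereg had a value only without the filter. Under total-read scaling, 1 of the 10 genes was called lower, and 66 genes of the pathway lists were higher and 7 lower, against 41 and 23. Over all genes that scaling called 10299 higher and 1712 lower, against 5163 and 5099. The lower pathway genes numbered 15 after quantile normalization and 9 at a fold of 1.5, where Tgfa was also lost. The cause of these changes was not tested. Leaving out each liver in turn kept 5 higher and 3 lower among the 10 genes. With 20 normalized counts required in every liver, 28 pathway genes were higher, and for HGF activation 1 in place of 7. Leaving out each liver gave 37 to 40 higher and 19 to 25 lower pathway genes. With the replicate block, 5 and 3 of the 10 genes were called, and 40 and 22 pathway genes. Within-library ratios kept their direction in the 9 alternatives run for them (10 for the ligand sum), with a smallest possible p of 0.25 when paired. Adam9 was not called lower without WT replicate 2 or Vps15LKO replicate 1, with upper-quartile or total-read scaling, after quantile normalization or at either stricter threshold. Eps15 lost its call when any liver but WT replicate 3 was left out, with the replicate block, by DESeq2, without a trend, without the filter and at both stricter thresholds. Hbegf drops out where 20 normalized counts are required in every liver. Depth limits Areg and Ereg, which rest on at most 4 reads per WT library. With 3 livers per genotype, no exact test can go below 0.1.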

Other observations

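Of the 6 neutrophil markers, S100a8, Ly6g, Cxcr2 and Retnlg were at the floor in WT, with at most 3 reads per library. Of the 3 tested, 2 passed the filter only through Vps15LKO, which favoured their calls, and all 3 were called higher. The 6 markers had summed levels of 69.9 to 82.2 in WT, against 373 to 457 in Vps15LKO (normalized counts). Of the markers of T, NK and B cells, 6 of 10 were tested and all 6 were called higher, but 4 of them passed the filter only through Vps15LKO and 4 were called after quantile normalization. Their list had sums of 96.2 to 125 and 369 to 439, and Ncr1 was at the floor in WT. Endothelial markers were split, with 4 of 10 called higher and 5 lower (6 and 0 under total-read scaling, 4 and 4 after quantile normalization) and sums of 7979 to 8752 and 7037 to 8766. Mesothelial markers summed to 182 to 195 in WT and 175 to 233 in Vps15LKO, and none of the 3 tested was called by limma, but 2 were higher under total-read scaling and 1 was lower after quantile normalization. Mast cell and platelet markers summed to 236 to 309 and 356 to 381, with Cpa3, Mcpt4, Fcer1a and Gp9 at the floor in WT, and 2 of the 3 tested were called higher, of which 1 passed the filter only through Vps15LKO. Under total-read scaling 3 were higher, and after quantile normalization 1 was higher and 1 lower.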
